A study of Mus musculus with 43 samples.

Results

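The response of mouse embryonic stem cells (ESCs) to actinomycin D was compared between cells with p53 and cells labelled p53 knockout (p53 KO). Per gene, the change in log2(FPKM + 1) between ActD 10 and ActD 0 libraries was taken within each genotype, and the p53 KO change was subtracted from the ESC change. FPKM counts sequenced fragments relative to transcript length and to the mapped fragments of the library. The comparison uses 9 of the 43 samples of the series: 2 ESC libraries at ActD 10 and 3 at ActD 0, and 2 p53 KO libraries at ActD 10 and 2 at ActD 0. Of 46685 gene symbols, 15326 reached 1 FPKM in at least 2 of the 9 libraries and were tested.

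ActD 10 denotes 10 ng/ml actinomycin D, and ActD 0 its DMSO vehicle. The labels name the cells CJ9 mouse ESCs, with the strain label 129S1/SVImJ, and all cells were grown in serum medium with LIF, the cytokine that holds mouse ESCs in self-renewal. The p53 KO samples of this experiment carry the same source name as the ESC samples, CJ9, so their genotype rests on the sample titles. The labels give neither the length of treatment nor the deleted part of the p53 gene nor the number of p53 KO clones. Nothing states that libraries of a group came from separate cultures, so the spread behind the p-values is that between libraries and may be technical. Genotype coincides with deposited table, so a difference of changes cannot be told apart from a difference between the tables. Levels were compared only within a genotype. In bulk RNA, fewer cells of a type and less RNA per cell cannot be told apart.

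Actinomycin D intercalates into DNA, and at low concentrations it blocks RNA polymerase I, which transcribes ribosomal RNA (rRNA), more than the other polymerases. When ribosome assembly stops, free ribosomal proteins bind Mdm2, the ubiquitin ligase that marks p53 for degradation, and p53 accumulates. The p53 protein is a transcription factor that activates genes of growth arrest, apoptosis and DNA repair, and in mouse ESCs it is also known to repress Nanog.

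Mapped reads numbered 12617928 to 12695110 in ESC ActD 10 and 7112852 to 12093897 in ESC ActD 0 libraries. They numbered 10023074 to 10163153 in p53 KO cells at ActD 10 and 8257924 to 12975340 at ActD 0. The share of reads mapped was 77.7% to 78.7% at ActD 10 and 70.1% to 73.6% at ActD 0 in ESCs, and 76.8% to 78.3% at ActD 10 and 71.7% to 72.3% at ActD 0 in p53 KO cells. Both ESC ActD 10 libraries came from sequencing lane 7 and the ESC ActD 0 libraries from lanes 2, 8 and 8, so lane and dose cannot be told apart there. In p53 KO cells both ActD 10 libraries and 1 ActD 0 library shared lane 3. ESC ActD 0 library a, the shallowest, stood apart: it differed from libraries b and c by over 1 on the log2 scale at 12.4% of genes each, while b and c differed so at 2.23%. Counts of list members called without library a, an alternative chosen after seeing the data, are given beside some lists. Calls in other lists moved too. The 9 ESC markers summed to 322 to 324 FPKM at ActD 10 and 2479 to 2669 at ActD 0 in ESCs, and to 1672 to 1804 FPKM at ActD 10 and 1988 to 2103 at ActD 0 in p53 KO cells.

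The part of the p53 gene deleted is unknown, so its RNA does not check the genotype label. Trp53, which encodes p53, had 234 and 235 FPKM in ESC ActD 10 libraries, against 246, 254 and 260 FPKM at ActD 0. In the p53 KO table it had 175 and 194 FPKM at ActD 10, against 91.5 and 104 FPKM at ActD 0. Its log2 change was -0.11 ± 0.08 (SE) in ESCs and 0.91 ± 0.08 in p53 KO cells, and the difference of changes was -1.02 ± 0.11 (adjusted p = 0.0005). After rescaling each library to the median gene of its own table, the ESC change became -0.27 (adjusted p = 0.0155) and the p53 KO change 0.50.

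More genes changed in ESCs than in p53 KO cells. At an adjusted p of 0.05, 5308 genes rose (34.6% of those tested) and 2962 fell (19.3%) in ESCs, and 3240 rose (21.1%) and 467 fell (3.05%) in p53 KO cells. The difference of changes was called above 0 for 2601 genes (17%) and below 0 for 3040 (19.8%). The filter also admits genes that reach 1 FPKM in the 2 ESC ActD 10 libraries alone. With 1 FPKM in 2 libraries of each genotype, 12198 genes were tested. Of these, 3920 rose and 2899 fell in ESCs, and 3171 rose and 473 fell in p53 KO cells. The median gene moved by 0.21 in ESCs and 0.31 in p53 KO cells as deposited, and by 0.09 and 0.01 after rescaling. The p53 KO direction depended on that choice: rescaled, 926 genes rose (6.04%) and 1357 fell (8.85%), so 40.6% of its calls were higher when rescaled and 87.4% as deposited. In ESCs, rescaling gave 4620 higher (30.1%) and 3618 lower (23.6%), and the difference of changes 3132 above 0 (20.4%) and 2184 below 0 (14.3%). Without ESC ActD 0 library a, 5865 genes rose and 3362 fell in ESCs, 5288 rose and 758 fell in p53 KO cells, and the difference was called for 3229 above and 4010 below 0. Within lane 3 of the p53 KO table, which leaves 1 ActD 0 library assumed to vary like the other groups, 1321 genes rose and 257 fell.

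Genes were sorted by these calls. A p53-dependent gene changed in ESCs, had a called difference and did not change the same way in p53 KO cells: 2116 rose (13.8%) and 1977 fell (12.9%). Of the 2116, 911 stayed under 1 FPKM in every p53 KO library. A further 405 genes rose (2.64%) and 145 fell (0.946%) in both genotypes with a smaller change in p53 KO cells. A p53-independent gene changed the same way in both without a called difference: 1141 rose (7.44%) and 169 fell (1.1%). For 866 of the 1141 and 145 of the 169, the 95% interval of the difference lay within 1 log2 unit of 0, so for the others a larger difference is not excluded. Changes called in p53 KO cells with a called difference and no like change in ESCs, the p53 KO-only class, were 1159 higher (7.56%) and 100 lower (0.652%). Another 82 rose (0.535%) and 10 fell (0.0652%) in both genotypes, more in p53 KO cells. Calls in opposite directions were made for 561 genes, which count under both p53-dependent and p53 KO-only: 48 rose in ESCs and fell in p53 KO cells, and 513 did the reverse.

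Rescaling changed the class sizes unevenly. The p53-dependent class then held 2701 higher and 1517 lower genes, of which 2065 and 1394 were also in the class as deposited. The p53-independent higher class shrank to 316 genes, 294 of them shared, and the lower class grew to 558. The p53 KO-only class held 308 higher genes, 301 of them shared, and 302 lower. Opposite calls fell to 263 genes, 139 of them higher in ESCs and lower in p53 KO cells. At the edge of the threshold, Btf3l4 was the first gene outside, with a difference of -0.42.

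**Figure D1:**
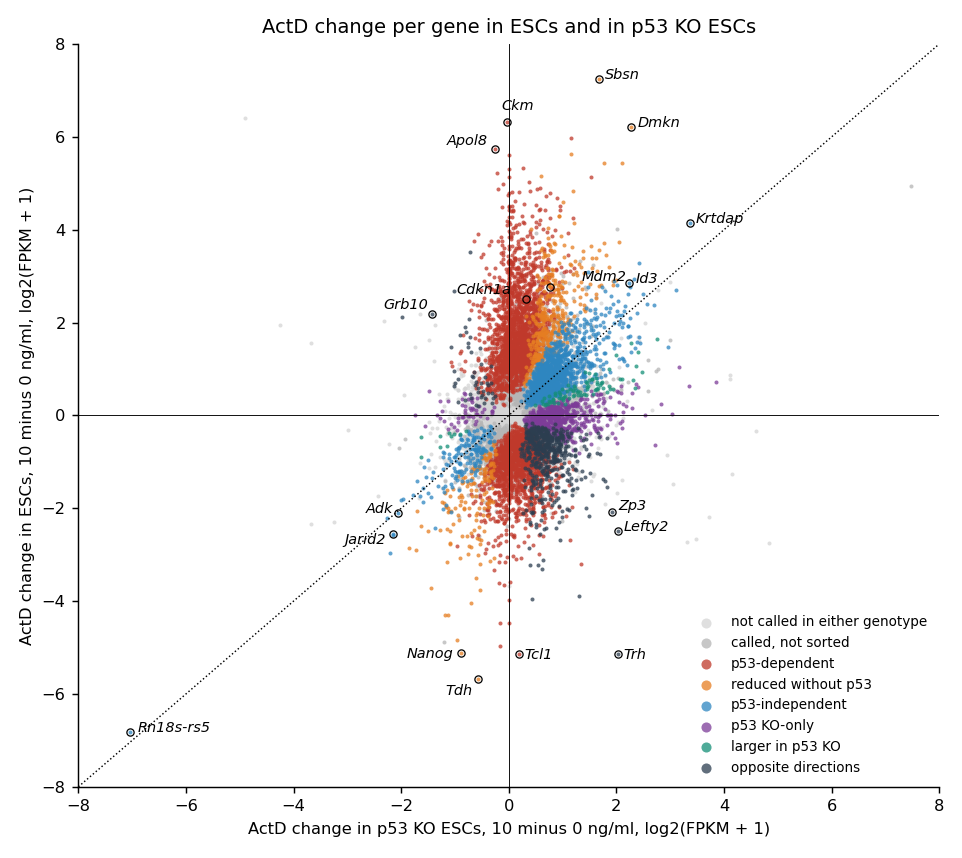
Log2 change at ActD 10 relative to ActD 0 in ESCs (y axis) against p53 KO cells (x axis), 1 point per tested gene, coloured by class, on the log2(FPKM + 1) scale. The p53-dependent genes have median changes of 1.63 and -0.93 in ESCs and of 0.09 and 0.29 in p53 KO cells. These medians include the 561 genes with opposite calls, which are drawn in their own colour. The p53-independent genes lie along the diagonal, and 1 gene, Snora68, lies outside the plotted range.

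Most canonical p53 targets tested rose in ESCs, and fewer were called higher in p53 KO cells. The margin depended on ESC ActD 0 library a. That library enters the p53 KO calls only through the shared spread, the filter and the adjustment, not through the p53 KO changes. The counts of each list are to be read beside the shares over all genes tested. These were 34.6% higher and 19.3% lower in ESCs, and 21.1% higher and 3.05% lower in p53 KO cells. Differences of changes were above 0 for 17% and below 0 for 19.8%. Of 11 feedback regulators, 9 rose and 1 fell in ESCs, 2 rose in p53 KO cells, and 9 had a difference of changes above 0, with a median difference of 1.34 against -0.12 over all genes. Of 15 growth arrest targets, 12 rose and 1 fell in ESCs, 6 rose in p53 KO cells, and the difference was above 0 for 10 and below 0 for 1, the cyclin gene Ccnd1, named after its value was seen. Of 21 apoptosis targets, 16 rose in ESCs and 6 in p53 KO cells, and 10 had a difference above 0 with none below. Of 58 repair, metabolism and other targets, 40 rose and 6 fell in ESCs, 10 rose and 5 fell in p53 KO cells, and the difference was above 0 for 35 and below 0 for 8. After rescaling, the genes that rose in p53 KO cells were 1 feedback regulator, 2 growth arrest targets, 2 apoptosis targets and 3 of the other targets. Without library a, 5 of the 11 feedback regulators, 10 of the 15 growth arrest targets, 7 of the 21 apoptosis targets and 16 of the 58 other targets rose in p53 KO cells, and the difference was above 0 for 9, 10, 11 and 37. With a pseudocount of 0.1, chosen after seeing the data, 5 of the 11 feedback regulators had a difference above 0 that passed the test.

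The promoter windows of Cdkn1a and Ccng1 are shown because each holds a match, with 1 mismatch, to the p53 response element, a pair of 10-base sequences of which p53 binds both, searched here without a spacer. Each window runs from 250 bases before to 50 bases after the start in RefSeq (GRCm38.p6), on the gene's own strand, and capitals mark the 20-base match, which reads as a match on both strands. Cdkn1a lies on the plus strand at chr17:29090729-29091028, with the match starting 51 bases before the start. Ccng1 lies on the minus strand at chr11:40755237-40755536, with the match starting 195 bases before the start.
Cdkn1a: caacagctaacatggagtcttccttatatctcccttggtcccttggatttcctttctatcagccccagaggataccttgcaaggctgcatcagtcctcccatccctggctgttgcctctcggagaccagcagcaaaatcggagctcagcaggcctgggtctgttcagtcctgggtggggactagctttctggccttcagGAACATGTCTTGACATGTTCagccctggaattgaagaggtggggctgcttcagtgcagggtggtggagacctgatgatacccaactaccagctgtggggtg
Ccng1: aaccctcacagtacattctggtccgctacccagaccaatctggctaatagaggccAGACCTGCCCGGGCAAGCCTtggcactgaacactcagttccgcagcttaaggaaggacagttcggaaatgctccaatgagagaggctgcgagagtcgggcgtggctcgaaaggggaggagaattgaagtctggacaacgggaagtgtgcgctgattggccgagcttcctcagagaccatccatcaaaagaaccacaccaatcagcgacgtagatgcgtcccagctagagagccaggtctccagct

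Of the 15326 tested genes, 10050 had such a window, and 7 of these (0.0697%) held a match with at most 1 mismatch. The class that rose in a p53-dependent way had 3 in 1536 (0.195%) and the class that rose less without p53 had 1 in 305 (0.328%). With at most 2 mismatches the shares were 1.69% and 1.97% in these classes, 1.37% among p53-independent genes that rose, 0.732% among p53-dependent genes that fell, and 0.995% over all. The rest of the 7 were named for their matches after values were seen. Gtse1, a p53-binding mitotic protein, rose to 318 and 313 FPKM in ESC ActD 10 libraries, against 136, 122 and 125 at ActD 0, and less in p53 KO cells (log2 changes 1.30 and 0.37). Calhm2, a channel protein gene, was p53-dependent and higher. Sptbn4, Mthfd1 and Rps27l were not called in any class. These matches describe the letters only, and sites outside the window were not searched. These matched elements are shown because they are all the others found, 5′ to 3′ on the gene's strand, each with 1 mismatch but for the exact match in Sptbn4. They lie at chr15:85859945-85859964 (Gtse1, plus), chr19:47138451-47138470 (Calhm2, minus), chr7:27396234-27396253 (Sptbn4, minus), chr12:76255090-76255109 (Mthfd1, plus) and chr9:66946296-66946315 (Rps27l, plus), and the whole match is in capitals.
Gtse1: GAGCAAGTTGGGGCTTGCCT
Calhm2: GGGCAAGCCTAGGCAAGATC
Sptbn4: GAGCTAGCCTAGGCTAGTCT
Mthfd1: AAACTTGCTCAGACAGGCCC
Rps27l: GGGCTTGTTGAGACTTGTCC

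Among feedback regulators, Mdm2, the ubiquitin ligase of p53, had 235 and 237 FPKM in ESC ActD 10 libraries, against 33.6, 33.6 and 33.8 FPKM at ActD 0. Its levels in p53 KO cells were 13.6 and 12.5 FPKM at ActD 10, against 6.83 and 7.80 FPKM at ActD 0. The dose groups did not overlap in either genotype, and the log2 changes were 2.77 ± 0.08 and 0.76 ± 0.08 (adjusted p = 0.0015 in p53 KO cells), with a difference of 2.02 ± 0.11 (adjusted p = 4.6e-05). Mdm2 was thus in the class that rose in both genotypes and less in p53 KO cells. Ccng1, which encodes cyclin G1, a recruiter of phosphatase to Mdm2, had 119 and 111 FPKM in ESC ActD 10 libraries, against 24.1, 23.5 and 22.2 FPKM at ActD 0. Levels in p53 KO cells were 0.851 and 0.892 FPKM at ActD 10, against 0.872 and 1.55 FPKM at ActD 0, which overlap. Its difference of changes was 2.48 ± 0.21 (adjusted p = 0.00016). Trp53inp1, a p53 cofactor of the nuclear bodies, rose by 2.04 ± 0.14 in ESCs and had a change of 0.25 ± 0.15 in p53 KO cells.

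Cdkn1a, which encodes the cyclin-dependent kinase inhibitor p21, had 169 and 178 FPKM in ESC ActD 10 libraries, against 32.5, 27.3 and 29.7 FPKM at ActD 0. The p53 KO libraries had 7.44 and 8.65 FPKM at ActD 10, against 6.44 and 5.96 FPKM at ActD 0. The ESC change was 2.51 ± 0.10 and the p53 KO change 0.33 ± 0.11 (adjusted p = 0.071), with a difference of 2.18 ± 0.15 (adjusted p = 8.2e-05). Plk2, a polo-like kinase, and Gadd45g, a growth arrest and stress gene, likewise rose in ESCs and did not pass the test in p53 KO cells. Plk2 had 130 and 136 FPKM in ESC ActD 10 libraries, against 14.5, 12.9 and 11.9 FPKM at ActD 0, and a p53 KO change of 0.61 ± 0.20. Its difference of 2.64 became 1.95 with a pseudocount of 0.1 (adjusted p = 0.0505), and its p53 KO levels were 1.13 to 1.30 FPKM at ActD 10 and 0.185 to 0.786 at ActD 0. Gadd45g had a difference of 2.77 ± 0.43 (adjusted p = 0.0021).

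Apoptosis targets showed both patterns. Perp, a desmosomal membrane protein and p53 effector, had 256 and 228 FPKM in ESC ActD 10 libraries, against 11.6, 12.5 and 14.1 FPKM at ActD 0. Among p53 KO libraries it had 3.85 and 2.59 FPKM at ActD 10, against 0.844 and 0.770 FPKM at ActD 0, so it rose there too, by 1.21 ± 0.17 against 4.15 ± 0.15 in ESCs. Fas, the death receptor, had 19.5 and 15.9 FPKM in ESC ActD 10 libraries, against 0, 0.89 and 0.13 FPKM at ActD 0, and was listed at 0 in all 4 p53 KO libraries. Fas passed the filter only through the ESC ActD 10 libraries. Bik, a BH3-only killer protein, rose by 2.36 ± 0.27 in ESCs and had a change of -0.52 ± 0.30 in p53 KO cells, with a difference of 2.88 ± 0.41 (adjusted p = 0.0015). The dose groups of these 3 genes did not overlap in ESCs.

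Among the other targets, Dcxr, a sugar and dicarbonyl reductase, had 162 and 159 FPKM in ESC ActD 10 libraries, against 11.6, 13.0 and 10.8 FPKM at ActD 0. In p53 KO cells it was listed at 0 in both ActD 10 libraries, against 0.373 and 0.227 FPKM at ActD 0, and the difference of changes was 4.04 ± 0.18 (adjusted p = 2.5e-05). Tap1, a subunit of the peptide transporter of antigen presentation, had a difference of 3.47 ± 0.43 (adjusted p = 0.0008). Ephx2, a soluble epoxide hydrolase, went the other way. It had 3.2 and 2.7 FPKM in ESC ActD 10 libraries, against 21.5, 19.1 and 20.2 FPKM at ActD 0, and 36.7 and 38.9 FPKM in p53 KO ActD 10 libraries, against 22.3 and 23.7 FPKM at ActD 0. Its log2 changes were -2.43 ± 0.10 and 0.69 ± 0.10, and after rescaling the p53 KO change, 0.29, was no longer called (adjusted p = 0.0808).

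**Figure D2:**
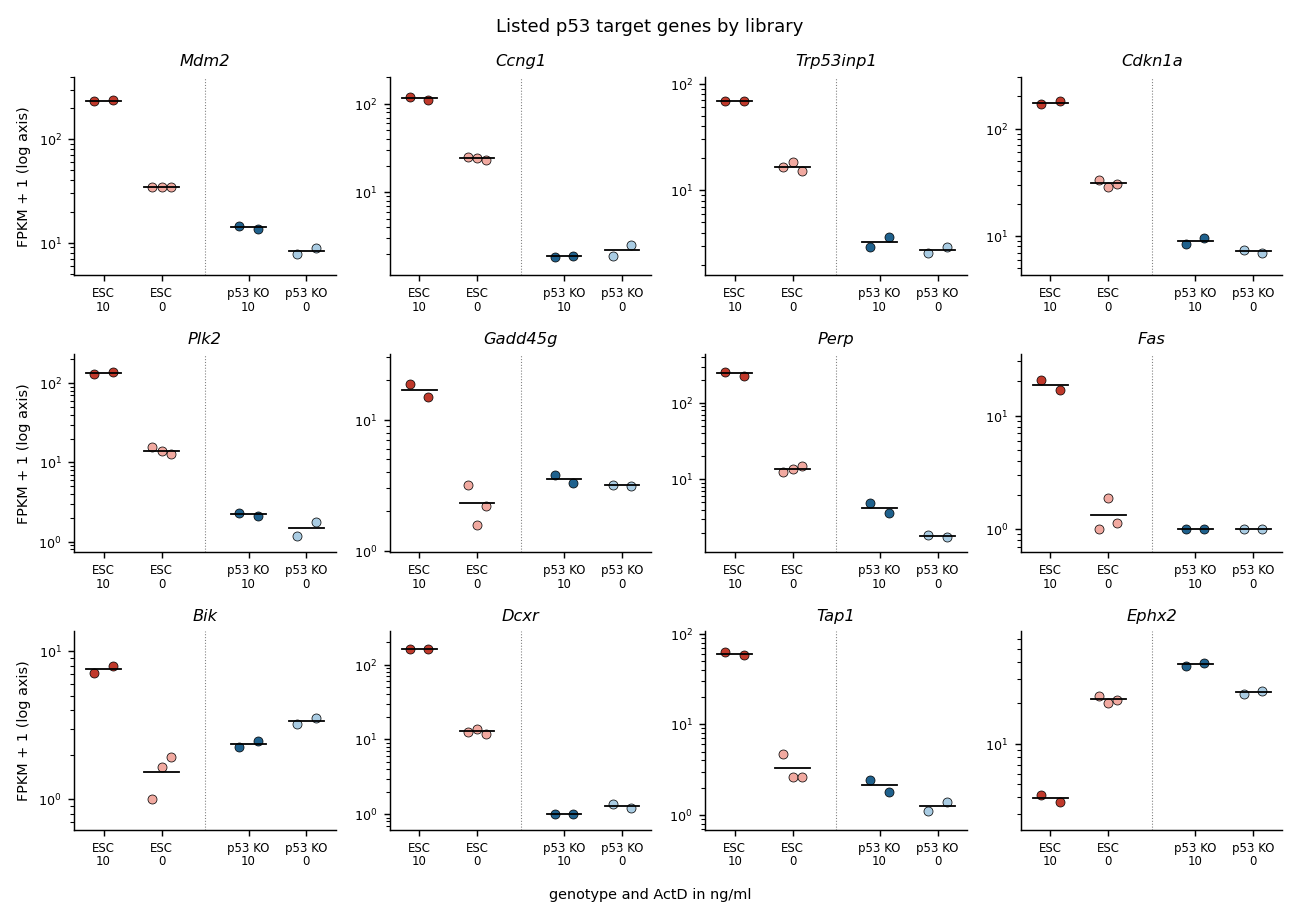
FPKM in each library, on a log axis of FPKM + 1, for 12 p53 targets, with ActD 10 left of ActD 0 in ESCs and in p53 KO cells and bars at the group means. Ephx2 is lower at ActD 10 in ESCs and higher in p53 KO cells. The other 11 genes are separated by dose in ESCs by a wider gap than in p53 KO cells. Mdm2 and Perp are also called higher at ActD 10 in p53 KO cells. Cdkn1a and Plk2 are higher in both ActD 10 libraries there, but did not pass the test.

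The p53-dependent rises named for their size, among genes with separated libraries and at least 5 FPKM, were in genes at under 2 FPKM in every untreated ESC library. Ckm, muscle creatine kinase, had 101 and 92.4 FPKM in ESC ActD 10 libraries, against 0, 0.40 and 0.28 FPKM at ActD 0. In p53 KO cells it had 0.153 and 0.151 FPKM at ActD 10, against 0.392 and 0 FPKM at ActD 0. The difference of changes was 6.36 ± 0.31 (adjusted p = 3.3e-05), and in p53 KO cells Ckm stayed under 1 FPKM. Ckm passed the filter only through the ESC ActD 10 libraries, so its test is not independent of that selection. With 1 FPKM in 2 libraries of each genotype, the p53-dependent class that rose held 1060 genes instead of 2116. Apol8, an apolipoprotein L gene, had 95.5 and 97.1 FPKM in ESC ActD 10 libraries, against 0.83, 0.93 and 0.74 FPKM at ActD 0. Krt15, a basal keratin, had 50.3 and 51.6 FPKM in ESC ActD 10 libraries, against 0, 0 and 0.23 FPKM at ActD 0, and was listed at 0 in all p53 KO libraries. Like Ckm, it passed the filter only through the ESC ActD 10 libraries. Differences above 5 were also found for Rgs14, a regulator of G-protein signalling (5.43), Ces2e, a carboxylesterase (5.30), and H2-Eb1, an MHC class II chain (5.09).

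Some genes with large rises in ESCs rose in p53 KO cells as well. Sbsn, which encodes the epidermal secreted protein suprabasin, had 306 and 302 FPKM in ESC ActD 10 libraries, against 0, 2.05 and 1.66 FPKM at ActD 0. In the p53 KO table it had 5.88 and 6.58 FPKM at ActD 10, against 1.25 and 1.29 FPKM at ActD 0, a change of 1.67 ± 0.47 (adjusted p = 0.039) against 7.25 ± 0.43 in ESCs. Rescaled, the p53 KO change was 1.37 and not called (adjusted p = 0.11). Gpx3, a secreted glutathione peroxidase, had 475 and 462 FPKM in ESC ActD 10 libraries, against 12.5, 12.1 and 11.9 FPKM at ActD 0. Its p53 KO levels were 10.2 and 12.5 FPKM at ActD 10, against 7.37 and 6.88 FPKM at ActD 0, a change of 0.60 ± 0.10 that became 0.23 and not called after rescaling.

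Pluripotency genes fell in ESCs, and most of that fall was absent or smaller in p53 KO cells. Of 36 genes of the pluripotency network, 31 fell and 1 rose in ESCs (median change -2.26), while 12 fell and 12 rose in p53 KO cells (median -0.12, or -0.52 with 18 lower and 5 higher after rescaling). The difference of changes was below 0 for 31, with a median of -1.97, and above 0 for 1. Of the 36, 20 fell in a p53-dependent way, 9 fell less in p53 KO cells and 2 fell independently of p53.

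Nanog, a core pluripotency factor, had 2.30 and 1.39 FPKM in ESC ActD 10 libraries, against 104, 99.5 and 88.9 FPKM at ActD 0. Its levels in p53 KO cells were 59.0 and 62.0 FPKM at ActD 10, against 111 and 115 FPKM at ActD 0. It fell in both genotypes, with log2 changes of -5.13 ± 0.14 in ESCs and -0.89 ± 0.15 in p53 KO cells, and the difference was -4.24 ± 0.20 (adjusted p = 2.9e-05). Pou5f1, which encodes Oct4, had 50.6 and 47.3 FPKM in ESC ActD 10 libraries, against 459, 389 and 415 FPKM at ActD 0. Levels in p53 KO cells were 336 and 313 FPKM at ActD 10, against 272 and 282 FPKM at ActD 0, a change of 0.23 ± 0.09 (adjusted p = 0.108). Its ESC change was -3.08 ± 0.08. Sox2, the partner factor of Oct4, fell in both, with log2 changes of -1.90 ± 0.11 in ESCs and -0.40 ± 0.12 in p53 KO cells. The naive-state factors Zfp42 (-3.50 ± 0.06 in ESCs and -0.62 ± 0.06 in p53 KO cells) and Esrrb (-4.31 ± 0.09 and -1.18 ± 0.10) did so too.

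Further large differences were found outside the core factors. Tdgf1, a Nodal coreceptor, had 7.13 and 6.80 FPKM in ESC ActD 10 libraries, against 214, 271 and 262 FPKM at ActD 0. The p53 KO libraries had 253 and 247 FPKM at ActD 10, against 272 and 289 FPKM at ActD 0, a change of -0.17 ± 0.11 that did not pass the test. Tcl1, an Akt coactivator of ESCs, had changes of -5.14 ± 0.13 and 0.19 ± 0.14. Tdh, threonine dehydrogenase, on which mouse ESCs rely for one-carbon units, had 3.21 and 3.32 FPKM in ESC ActD 10 libraries, against 226, 210 and 214 FPKM at ActD 0. It had 88.1 and 77 FPKM in p53 KO ActD 10 libraries, against 125 and 121 FPKM at ActD 0, and its difference of -5.10 ± 0.11 had an adjusted p of 3.5e-06. Klf4, a naive-state factor, was the only 1 of the 36 with a difference called above 0 as deposited (2 after rescaling). It had 21.0 and 21.4 FPKM in ESC ActD 10 libraries, against 22, 22.1 and 25.6 FPKM at ActD 0, and 13.6 and 10.8 FPKM in p53 KO ActD 10 libraries, against 29.0 and 29.4 FPKM at ActD 0. It was called lower in p53 KO cells alone (-1.20 ± 0.12), with a difference of 1.07 ± 0.17 (adjusted p = 0.0023).

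**Figure D3:**
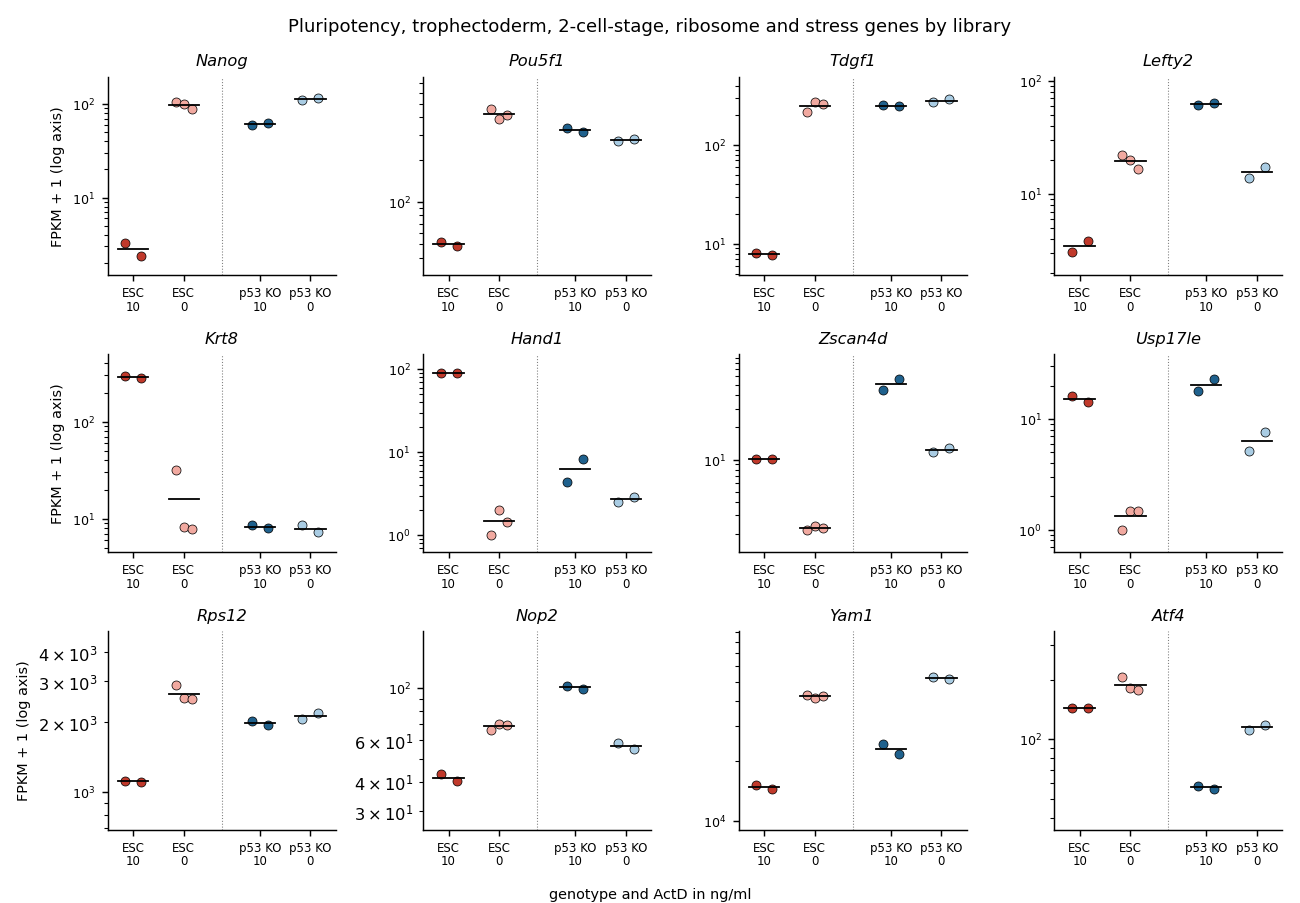
FPKM in each library, on a log axis of FPKM + 1, for 12 genes of cell identity, 2-cell-stage, ribosome and stress response, with ActD 10 left of ActD 0 in ESCs and in p53 KO cells and bars at the group means. Nanog, Pou5f1 and Tdgf1 are far lower at ActD 10 in ESCs (log2 changes of -5.13, -3.08 and -4.97) and change less in p53 KO cells (-0.89, 0.23 and -0.17), Lefty2 moves in opposite directions, and Zscan4d and Yam1 move the same way in both.

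Trophectoderm genes, which mark the outer lineage of the blastocyst, rose in ESCs. Of 17 tested, 15 rose in ESCs (median change 2.41) and 6 in p53 KO cells (median 0.58, or 0.36 with 1 higher after rescaling). Without ESC ActD 0 library a, 10 rose in p53 KO cells. The difference was above 0 for 10 and below 0 for 1, Tead4, which rose more in p53 KO cells (0.43 ± 0.15 in ESCs and 1.34 ± 0.17 in p53 KO cells). The call for Tead4 was lost without ESC ActD 10 library b (adjusted p = 0.0762) or p53 KO ActD 10 library b (adjusted p = 0.0607). Krt8, a simple-epithelium keratin, had 292 and 281 FPKM in ESC ActD 10 libraries, against 31, 7.15 and 6.89 FPKM at ActD 0, the 31 being library a. Among p53 KO libraries it had 7.57 and 6.98 FPKM at ActD 10, against 7.60 and 6.25 FPKM at ActD 0, which overlap. Its difference was 4.43 ± 0.82 (adjusted p = 0.0049), or 5.10 ± 0.14 without library a, and the ESC groups did not overlap. Hand1, a trophoblast and mesoderm transcription factor, had 88.6 and 87.7 FPKM in ESC ActD 10 libraries, against 0, 0.99 and 0.43 FPKM at ActD 0. Its p53 KO levels were 3.37 and 7.35 FPKM at ActD 10, against 1.55 and 1.88 FPKM at ActD 0, and that change, 1.16 ± 0.38, did not pass the test (adjusted p = 0.063).

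Other lineage lists were less uniform. Of 7 mesoderm and primitive streak genes, 6 rose in ESCs and 2 in p53 KO cells, and the difference was above 0 for 5 and below 0 for the T-box gene T (-1.29), named after its value was seen. With a pseudocount of 0.1 the difference was above 0 for 1 of the 7. Of 11 primitive endoderm genes, 8 rose and 2 fell in ESCs, and 2 rose and 2 fell in p53 KO cells. Their difference was above 0 for 4, including the basement membrane collagens Col4a1 (1.09) and Col4a2 (1.16), though the Col4a2 call was lost when any 1 of 4 libraries was left out (adjusted p = 0.0619 to 0.0782). Of 15 primed epiblast and neuroectoderm genes, 5 rose and 6 fell in ESCs, beside 34.6% and 19.3% over all genes tested. In p53 KO cells 5 of the 15 rose, beside 21.1%. Among them Otx2, a primed-state homeobox factor, had 0.30 and 0.41 FPKM in ESC ActD 10 libraries, against 2.72, 5.94 and 5.77 FPKM at ActD 0. It had 34.1 and 31.4 FPKM in p53 KO ActD 10 libraries, against 12 and 17.6 FPKM at ActD 0, with a difference of -3.16 ± 0.43 (adjusted p = 0.0013). The p53 KO rise of 1.11 was not called after rescaling (0.72, adjusted p = 0.2).

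Immediate early genes, which respond to growth factors and stress within minutes, rose more in ESCs. Of 20, 16 rose and 3 fell in ESCs, 10 rose and 2 fell in p53 KO cells (1 and 2 after rescaling), and the difference was above 0 for 15 and below 0 for 3. Fosl1, an AP-1 subunit, had 145 and 156 FPKM in ESC ActD 10 libraries, against 2.36, 2.28 and 1.6 FPKM at ActD 0. In p53 KO cells it had 3.22 and 3.29 FPKM at ActD 10, against 0.317 and 1.74 FPKM at ActD 0, with a difference of 4.47 ± 0.43 (adjusted p = 0.00027). The differences of Cyr61, a matricellular YAP target, and Jun, the AP-1 core subunit, were 3.86 and 2.84.

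**Figure D4:**
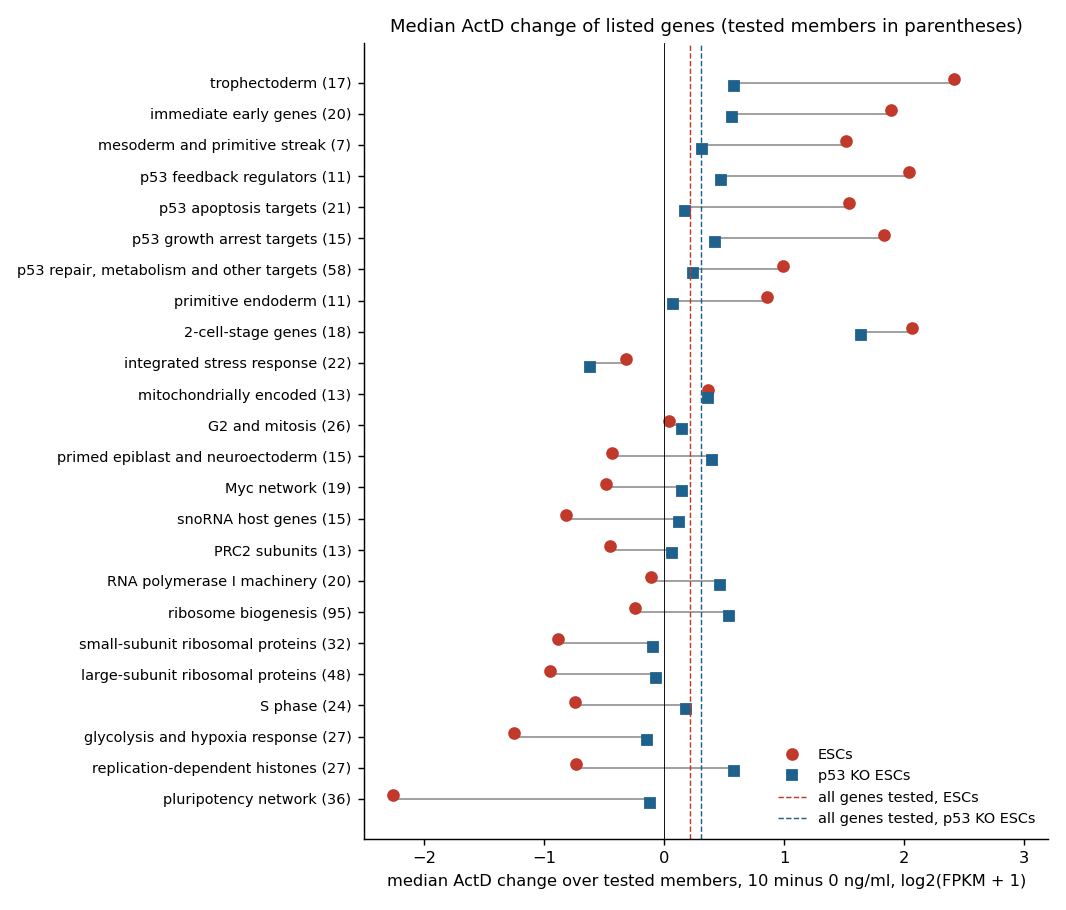
Median log2 change at ActD 10 relative to ActD 0 for each gene list, in ESCs and in p53 KO cells, on the log2(FPKM + 1) scale, with the median of all 15326 tested genes as vertical lines. The pluripotency network (-2.26 in ESCs, -0.12 in p53 KO cells) and the trophectoderm list (2.41 and 0.58) are far apart between genotypes. The 2-cell-stage list (2.07 and 1.64) is close on this scale. Its median difference was 0.26 here and 1.64 with a pseudocount of 0.1, so that closeness depends on the pseudocount.

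Ribosomal protein genes fell in ESCs. Of 48 large-subunit genes, 46 fell in ESCs (median -0.95) and 6 in p53 KO cells (median -0.07), and 41 had a difference below 0. Of 32 small-subunit genes, 30 fell in ESCs (median -0.89), 2 fell and 1 rose in p53 KO cells (median -0.10), and 25 had a difference below 0. Rescaling gave p53 KO medians of -0.47 and -0.51, with 34 and 24 genes lower, and 36 and 20 differences below 0, so the p53 KO decline depends on the scaling. Without ESC ActD 0 library a, 10 large-subunit and 4 small-subunit genes fell in p53 KO cells. Rps12, a small-subunit protein, had 1117 and 1104 FPKM in ESC ActD 10 libraries, against 2884, 2528 and 2510 FPKM at ActD 0. In the p53 KO table it had 2029 and 1941 FPKM at ActD 10, against 2053 and 2190 FPKM at ActD 0, with a difference of -1.15 ± 0.12 (adjusted p = 0.00039). Rpl22l1, a paralogue of Rpl22, had changes of -3.17 ± 0.15 in ESCs and -1.16 ± 0.16 in p53 KO cells. Ribosomal protein genes have many processed pseudogenes, and how reads were shared between them is not stated.

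Ribosome biogenesis factors moved in different directions in the 2 genotypes as deposited. Of 95, 46 fell and 12 rose in ESCs (median -0.25), while 58 rose and 1 fell in p53 KO cells (median 0.54). The difference was below 0 for 66 and above 0 for 1, Pwp2 (0.89), a processome subunit named after its value was seen. Without ESC ActD 0 library a, 68 rose in p53 KO cells and the difference was below 0 for 73. Rescaled, 15 rose and 8 fell in p53 KO cells (median 0.14), and the difference was below 0 for 53 and above 0 for 3. Nop2, a methyltransferase of 28S rRNA, had 42.0 and 39.1 FPKM in ESC ActD 10 libraries, against 65.1, 69.4 and 68.4 FPKM at ActD 0. It had 101 and 98.3 FPKM in p53 KO ActD 10 libraries, against 57.7 and 54.2 FPKM at ActD 0. Its opposite calls held after rescaling, with changes of -0.89 and 0.42. Utp14a, a processome subunit (-1.28 in ESCs, 0.68 in p53 KO cells), Emg1, an 18S rRNA methyltransferase (-1.11 and 0.70), and Tcof1, the nucleolar protein treacle (-1.23 and 0.40), also moved in opposite directions, but their p53 KO rises were not called after rescaling.

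Among 20 genes of the RNA polymerase I machinery, 7 fell and 5 rose in ESCs and 9 rose in p53 KO cells, 1 of them after rescaling. The difference was below 0 for 8 and above 0 for 1, the terminator Ttf1 (0.69), named after its value was seen. Without ESC ActD 0 library a, 12 rose in p53 KO cells and the difference was below 0 for 10. Over all genes tested, 34.6% rose and 19.3% fell in ESCs and 21.1% rose in p53 KO cells. Polr1c, a subunit shared by polymerases I and III, had a change of -1.35 ± 0.11 in ESCs and of -0.02 ± 0.13 in p53 KO cells. Ubtf, the rDNA architectural factor, had changes of -0.66 in ESCs and 0.49 in p53 KO cells, the p53 KO change being 0.09 and not called after rescaling. Ddx18, the nucleolar helicase the series was designed around, had 45.5 and 40.2 FPKM in ESC ActD 10 libraries, against 62.5, 67.5 and 62.0 FPKM at ActD 0. Its levels in p53 KO cells were 87.0 and 87.2 FPKM at ActD 10, against 76.3 and 78.9 FPKM at ActD 0, a change of 0.16 ± 0.08 that did not pass the test, and the difference was -0.73 ± 0.11 (adjusted p = 0.0019).

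S phase genes fell in ESCs: of 24, 17 fell and 1 rose there, 7 rose and 2 fell in p53 KO cells (1 and 8 after rescaling), and 15 had a difference below 0 with none above. Uhrf1, the cofactor of maintenance DNA methylation, had 21.6 and 20.9 FPKM in ESC ActD 10 libraries, against 95.8, 94.0 and 92.6 FPKM at ActD 0. Levels in p53 KO cells were 91.4 and 94.3 FPKM at ActD 10, against 72.5 and 82.2 FPKM at ActD 0. The difference was -2.36 ± 0.10 (adjusted p = 2.4e-05), and the p53 KO rise of 0.26 became -0.15, not called, after rescaling. Ccne1, cyclin E1, had a difference of -2.69 ± 0.12 (adjusted p = 2.7e-05). Of 26 genes of G2 and mitosis, 6 rose and 5 fell in ESCs and 5 rose in p53 KO cells. The difference was above 0 for 4 and below 0 for 5. None of these counts exceeds the share over all genes tested. Those shares were 34.6% higher and 19.3% lower in ESCs, 21.1% higher in p53 KO cells, and 17% and 19.8% for the difference. Without ESC ActD 0 library a, 9 of the 26 rose in p53 KO cells, and the difference was above 0 for 6 and below 0 for 9. Top2a, the topoisomerase that untangles replicated chromosomes, had a difference of -1.02. Of 27 replication-dependent histone genes, 10 fell and 1 rose in ESCs, 5 rose in p53 KO cells (1 after rescaling and 11 without ESC ActD 0 library a), and 12 had a difference below 0. These mRNAs normally lack a poly(A) tail, and the libraries were made from bead-purified mRNA, so they are measured only in part. In the Myc network of 19 genes, 10 fell and 4 rose in ESCs, with differences from -2.24 for Mycn to 3.56 for Mxd4, a Myc antagonist.

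Of 27 glycolysis and hypoxia response genes, 22 fell and 3 rose in ESCs (median -1.25), 10 fell in p53 KO cells (19 after rescaling), and the difference was below 0 for 18 and above 0 for 3. Pfkp, platelet phosphofructokinase, had changes of -2.82 ± 0.09 in ESCs and -0.75 ± 0.10 in p53 KO cells, and Ndrg1, a hypoxia-induced gene, had a difference of 2.02. Of 13 subunits of PRC2, the H3K27 methyltransferase complex, 7 fell and 2 rose in ESCs, 2 fell and 2 rose in p53 KO cells, and 6 had a difference below 0 (9 without ESC ActD 0 library a, an alternative chosen after seeing the data). Of 13 mitochondrially encoded genes, 4 rose in ESCs and 1 in p53 KO cells, and no difference passed the test as deposited. Over all genes tested, 34.6% rose in ESCs and 21.1% in p53 KO cells. Without ESC ActD 0 library a, 5 rose in ESCs and 5 in p53 KO cells. The difference of mt-Co1, a subunit of cytochrome c oxidase, was called after rescaling (0.68, adjusted p = 0.0232). That of mt-Nd1, a complex I subunit, was called at -1.28 with a minimum of 5 FPKM, with 1 FPKM in 2 libraries of each table, and in a fit of 11 libraries that adds the ActD 5 ones (adjusted p = 0.0347 to 0.0452). The p53 KO rise of mt-Co1 (0.46) was not called after rescaling, with a pseudocount of 0.1, without the filter or without the variance trend.

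The rRNA signal fell in both genotypes, and no difference of changes was called for the entries given here. Rn18s-rs5, an 18S rRNA repeat entry, had 5.23 and 2.05 FPKM in ESC ActD 10 libraries, against 378, 571 and 553 FPKM at ActD 0. The p53 KO libraries had 3.16 and 2.42 FPKM at ActD 10, against 656 and 376 FPKM at ActD 0. The changes were -6.82 ± 0.36 and -7.04 ± 0.39, and the difference was 0.22 ± 0.53 (adjusted p = 0.78), with a 95% interval from -1.02 to 1.46. This entry spans chr17:39848102-39848827 in the deposited coordinates (mm10). It overlaps Gm42418 (chr17:39846957-39848788), which also covers Yam1 (chr17:39847112-39848035), so reads cannot be assigned to a single entry. Gm42418, Gm26917 and Yam1 were named after their values were seen. Yam1 had 15136 and 14414 FPKM in ESC ActD 10 libraries, against 43143, 41352 and 42613 FPKM at ActD 0. It had 24456 and 21677 FPKM in p53 KO ActD 10 libraries, against 53032 and 52029 FPKM at ActD 0, with a difference of -0.33 ± 0.16 (adjusted p = 0.146). Gm26917 had changes of -2.57 and -2.16, and Gm42418 of -1.74 and -1.65. The 95% interval of the difference ran from -0.70 to 0.04 for Yam1. For Gm26917 the difference was -0.41, with an interval from -0.83 to 0.005. After rescaling, differences were -0.08 for Yam1, -0.16 for Gm26917, 0.16 for Gm42418 and 0.43 for Rn18s-rs5, so their size and direction depend on the scaling. The libraries were made from bead-purified mRNA, per the labels' protocols, so these are levels of the rRNA left after that step.

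Genes of the 2-cell stage, a totipotency program that a few cells of an ESC culture enter at any time, rose in both genotypes. Of 18, 15 rose and 1 fell in ESCs (median 2.07) and 16 rose in p53 KO cells (median 1.64, or 1.31 with 11 higher after rescaling). With a pseudocount of 0.1, 15 rose in ESCs and 7 in p53 KO cells, so the p53 KO calls of the other members rest on the pseudocount. The difference was above 0 for 3 (6 without ESC ActD 0 library a) and below 0 for 1, Eif1a, and 12 were p53-independent. Zscan4d, a telomere-associated zinc finger gene, had 9.12 and 9.22 FPKM in ESC ActD 10 libraries, against 1.18, 1.41 and 1.27 FPKM at ActD 0. Among p53 KO libraries it had 43.3 and 56.3 FPKM at ActD 10, against 10.8 and 11.7 FPKM at ActD 0. The changes were 2.16 ± 0.13 and 2.04 ± 0.15, and their difference was 0.11 ± 0.20 (adjusted p = 0.7). Zscan4f had a difference of 1.12 ± 0.18 (adjusted p = 0.0026) and Usp17le, a deubiquitinase gene, of 1.87 ± 0.37 (adjusted p = 0.0063). Zscan4f and Usp17le rose in both genotypes. With a pseudocount of 0.1 the median difference over the 18 was 1.64, against 0.26 with 1, so the closeness of the genotypes depends on the pseudocount. Zscan4 and Usp17l copies are near-identical, and reads could be split between them.

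Other p53-independent genes were named by the size of the smaller change. Adk, adenosine kinase, had 3.61 and 3.04 FPKM in ESC ActD 10 libraries, against 19.7, 18.4 and 14.5 FPKM at ActD 0. In p53 KO cells it had 3.90 and 3.95 FPKM at ActD 10, against 18.9 and 20.0 FPKM at ActD 0. The changes, -2.09 ± 0.14 and -2.05 ± 0.16, differed by -0.04 ± 0.21. Jarid2, a cofactor of PRC2, had 12.2 and 13.0 FPKM in ESC ActD 10 libraries, against 68.6, 85.3 and 85.5 FPKM at ActD 0. It had 20.3 and 20.0 FPKM in p53 KO ActD 10 libraries, against 90.8 and 94.5 FPKM at ActD 0. The difference was -0.42 ± 0.16 (adjusted p = 0.073), and without ESC ActD 0 library a it was called at -0.52 (adjusted p = 0.0032). Chac1, a glutathione-degrading enzyme of the integrated stress response, had changes of -2.21 ± 0.31 in ESCs and -2.27 ± 0.34 in p53 KO cells.

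Id3, a BMP-induced inhibitor of differentiation factors, had 97.1 and 88.1 FPKM in ESC ActD 10 libraries, against 13.3, 11.1 and 11.3 FPKM at ActD 0. In the p53 KO table it had 40.5 and 32.1 FPKM at ActD 10, against 5.52 and 8.59 FPKM at ActD 0. It rose in both, and the difference of 0.63 (adjusted p = 0.11) was called after rescaling at 0.86 (adjusted p = 0.0275) and without p53 KO ActD 0 library a at 0.91 (adjusted p = 0.0266). S100a6, a calcium-binding protein, had 147.99 and 136 FPKM in ESC ActD 10 libraries, against 29.9, 14.4 and 13.0 FPKM at ActD 0. It had 55.3 and 61.3 FPKM in p53 KO ActD 10 libraries, against 11.1 and 10.4 FPKM at ActD 0. Its difference of 0.60 (adjusted p = 0.35) became 0.95 (adjusted p = 0.00115) without ESC ActD 0 library a, so its p53 independence rests on that library.

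The integrated stress response, the Atf4-driven program of amino acid and protein stress, split. Of 22 genes, 11 fell and 7 rose in ESCs, 13 fell and 1 rose in p53 KO cells (median -0.62, or -1.02 with 16 lower after rescaling), and the difference was above 0 for 9 and below 0 for 6. Atf4, its transcription factor, had 143 and 144 FPKM in ESC ActD 10 libraries, against 207, 181 and 177 FPKM at ActD 0. Its levels in p53 KO cells were 57.2 and 54.7 FPKM at ActD 10, against 110 and 118 FPKM at ActD 0. The fall was larger in p53 KO cells (-1.01 ± 0.09) than in ESCs (-0.39 ± 0.08), by 0.62 ± 0.12 (adjusted p = 0.0052). Ddit3, which encodes the stress factor CHOP, had 36.6 and 37.3 FPKM in ESC ActD 10 libraries, against 8.14, 14.6 and 10.9 FPKM at ActD 0. Levels in p53 KO cells were 11.5 and 16.3 FPKM at ActD 10, against 21.5 and 21.6 FPKM at ActD 0, a change of -0.62 that did not pass the test as deposited and was called after rescaling (-1.01, adjusted p = 0.0418).

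Changes called only or oppositely in p53 KO cells included secreted signals. Trh, the precursor of thyrotropin-releasing hormone, had 6.49 and 4.17 FPKM in ESC ActD 10 libraries, against 218, 222 and 215 FPKM at ActD 0. The p53 KO libraries had 385 and 389 FPKM at ActD 10, against 88.1 and 100.5 FPKM at ActD 0. The changes were -5.14 ± 0.14 and 2.03 ± 0.16, and the difference was -7.17 ± 0.21 (adjusted p = 1.1e-05). Lefty2, a secreted Nodal antagonist, had 2.11 and 2.87 FPKM in ESC ActD 10 libraries, against 21.0, 19.1 and 15.8 FPKM at ActD 0. It had 60.9 and 63.2 FPKM in p53 KO ActD 10 libraries, against 13.0 and 16.2 FPKM at ActD 0. Zp3, a zona pellucida glycoprotein gene, had a difference of -4.0 ± 0.37 (adjusted p = 0.00024). These 3 genes kept opposite calls after rescaling, with p53 KO changes of 1.62, 1.62 and 1.55.

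The reverse pattern, higher in ESCs and lower in p53 KO cells, was made for 48 genes as deposited and 139 after rescaling. Grb10, an imprinted adaptor that dampens insulin signalling, had 42.5 and 37.6 FPKM in ESC ActD 10 libraries, against 5.37, 8.84 and 10.6 FPKM at ActD 0. Among p53 KO libraries it had 11.4 and 12.1 FPKM at ActD 10, against 31.9 and 35 FPKM at ActD 0. The changes were 2.19 ± 0.23 and -1.43 ± 0.25, and the difference was 3.62 ± 0.34 (adjusted p = 0.00025). Fabp3, a fatty acid-binding protein, had 399 and 399 FPKM in ESC ActD 10 libraries, against 113, 88.1 and 82.0 FPKM at ActD 0. It had 94.9 and 73.5 FPKM in p53 KO ActD 10 libraries, against 135 and 145 FPKM at ActD 0. Ldhb, a lactate dehydrogenase subunit (difference 2.59), Lgals3, galectin-3 (2.63), Rab31, an endosomal GTPase (2.56), and Tpm2, a tropomyosin (2.72), shared the pattern, and all 6 kept it after rescaling. The snoRNA gene Snora68 was also named by rule, with 830 and 436 FPKM in p53 KO ActD 10 libraries, against 0 and 0 at ActD 0, and 0 and 0 in ESC ActD 10 libraries, against 0, 0 and 439 at ActD 0. Its p53 KO change was not called after rescaling (adjusted p = 0.0645). Its difference was called after rescaling (adjusted p = 0.0378) but not without the filter (adjusted p = 0.0643), nor without any 1 of the ActD 10 or p53 KO libraries (adjusted p = 0.0767 to 0.0945).

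A small class rose in both genotypes and more in p53 KO cells. Slc30a2, a zinc transporter, had 13.9 and 14.9 FPKM in ESC ActD 10 libraries, against 5.69, 4.99 and 4.38 FPKM at ActD 0. In p53 KO cells it had 20.1 and 18.8 FPKM at ActD 10, against 2.76 and 3.00 FPKM at ActD 0, with a difference of -1.03 ± 0.19 (adjusted p = 0.0042). Laptm5, a lysosomal protein known from blood cells, had 48.5 and 53.1 FPKM in ESC ActD 10 libraries, against 29.2, 32.8 and 33.7 FPKM at ActD 0. It had 13.3 and 13.9 FPKM in p53 KO ActD 10 libraries, against 3.80 and 3.29 FPKM at ActD 0. The 6 blood markers, of which Laptm5 is the highest, summed to 51.3 to 53.7 FPKM at ActD 10 and 29.2 to 34.8 at ActD 0 in ESCs, and to 16.2 to 20.3 FPKM at ActD 10 and 3.80 to 4.74 at ActD 0 in p53 KO cells. The blood marker Lyz2 was listed at 0 in all groups, and Ptprc, the leukocyte surface antigen CD45, in all but 1 ESC ActD 10 library (0.0351 FPKM). Other blood markers were not at 0: Hba-a1, an alpha-globin, had 1.46 and 2.88 FPKM in p53 KO ActD 10 libraries, against 0 and 0.57 FPKM at ActD 0. Hbb-bs, a beta-globin, had 0.317 and 1.25 FPKM in p53 KO ActD 10 libraries, against 0 and 0 at ActD 0. Cd52, a leukocyte surface peptide, had 1.14 and 2.25 FPKM there, against 0 and 0.887 FPKM at ActD 0. Thy1, a surface glycoprotein of fibroblasts and other cells, had 23.8 and 24.8 FPKM in ESC ActD 10 libraries, against 19.8, 13.4 and 15.7 FPKM at ActD 0. It had 43.7 and 46.4 FPKM in p53 KO ActD 10 libraries, against 14.2 and 17.7 FPKM at ActD 0. The difference of -0.89 (adjusted p = 0.0225) was not called when any 1 of 5 libraries was left out (adjusted p = 0.0564 to 0.0805). The 8 fibroblast markers, led by Thy1, summed to 28.6 FPKM in both ActD 10 libraries and 13.9 to 20.7 FPKM at ActD 0 in ESCs, and to 45 to 47.9 FPKM at ActD 10 and 14.8 to 18.5 at ActD 0 in p53 KO cells, with Lum at 0 throughout. Col1a1, a collagen of fibroblasts, had 2.76 and 2.39 FPKM in ESC ActD 10 libraries, against 0.676, 0.316 and 0.212 FPKM at ActD 0. It had 0.822 and 0.872 FPKM in p53 KO ActD 10 libraries, against 0.463 and 0.384 FPKM at ActD 0. Pdgfra, a growth factor receptor of mesenchymal cells, had 1.61 and 1.22 FPKM in ESC ActD 10 libraries, against 0.262, 0.0778 and 0.196 FPKM at ActD 0, and 0.351 and 0.482 FPKM in p53 KO ActD 10 libraries, against 0.0760 and 0.164 FPKM at ActD 0. Both were higher at ActD 10 than at ActD 0 in every library of both genotypes. The part of such cells in these results was not tested.

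Libraries that took no part in the sorting were read for the same classes. A gene low in all control libraries is tested there only if it is higher after treatment, so shares were also taken over genes whose control libraries averaged 1 FPKM or more, an alternative chosen after seeing the data. CX-5461 is a small molecule inhibitor of RNA polymerase I, applied to ESCs at 1 µM in 3 libraries against 3 vehicle libraries. Of the 1340 tested genes that rose in a p53-dependent way, 90.0% rose with CX-5461 and 1.42% fell, beside 32.9% and 28.9% over all 12967 genes tested. Over the 773 of them at 1 FPKM or more in the controls, 83.4% rose and 2.46% fell, beside 26.4% and 32.3% over the 11601 such genes. Of the 1779 tested that fell in a p53-dependent way, 75.7% fell and 1.97% rose, and 76.0% fell over the 1773 at 1 FPKM or more in the controls. Of the 354 tested genes that rose in both genotypes and less in p53 KO cells, 93.2% rose with CX-5461. Of the 144 that fell so, 93.1% fell. Over genes at 1 FPKM or more in the controls, these were 91.2% and 93.1%. Among genes that rose, median ActD changes in ESCs were 1.63 (p53-dependent), 2.00 (less in p53 KO cells) and 0.84 (p53-independent). The part of that size in the shares was not tested. Among p53-independent genes that rose, 57.7% rose with CX-5461, and among p53 KO-only genes that rose, 54.9% fell and 6.22% rose. Over genes at 1 FPKM or more in the controls, these were 53.4% for p53-independent genes and 55.4% and 5.43% for p53 KO-only genes. The classes overlap: 513 of the 1159 p53 KO-only genes that rose also count among the p53-dependent genes that fell. These shares describe the classes, and no test was run between them.

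Knockdown (KD) of DDX18 in 2 mutant lines, 2 libraries against 2 each, moved fewer genes. In EZH2 KO ESCs, which lack the PRC2 methyltransferase, 22.9% of genes that rose in a p53-dependent way rose with DDX18 KD, beside 6.3% over all 11774 genes (20.1% beside 5.19% after rescaling). Over genes at 1 FPKM or more in the controls it was 23.7% of 1107, beside 6.03% of 10997. Of those that fell in a p53-dependent way, 7.19% fell, beside 2.18% over all genes (15.4% beside 4.75% after rescaling). With DDX18 KD in p53 KO ESCs, 3.63% of the genes that rose in a p53-dependent way rose, beside 2.63% over all 11636, and 0.266% beside 0.266% after rescaling. Over genes at 1 FPKM or more in the controls it was 3.74% of 989, beside 2.64% of 10621. Of those that fell, 1.42% fell there, beside 0.636% over all genes (2.51% beside 1.03% after rescaling). The contrast between the lines was not particular to this class. Genes that rose in both genotypes and less in p53 KO cells stood at 33.2% higher in EZH2 KO ESCs and 5.67% in p53 KO ESCs. Those that rose independently of p53 stood at 7.28% and 4.95%. Cdkn1a had a DDX18 KD change of 1.6 in EZH2 KO ESCs (adjusted p = 0.0021) and of 1.01 in p53 KO ESCs (adjusted p = 0.0705). Mdm2 had changes of 1.09 (adjusted p = 0.0057) and 0.91 (adjusted p = 0.061), and Nanog of -0.51 (adjusted p = 0.033) and 0.81 (adjusted p = 0.074). Perp had changes of 1.97 and 0.69. The difference between the 2 lines was not tested. With CX-5461 the changes were 2.78 for Cdkn1a, 3.19 for Mdm2, 4.71 for Perp and -1.59 for Nanog.

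**Figure D5:**
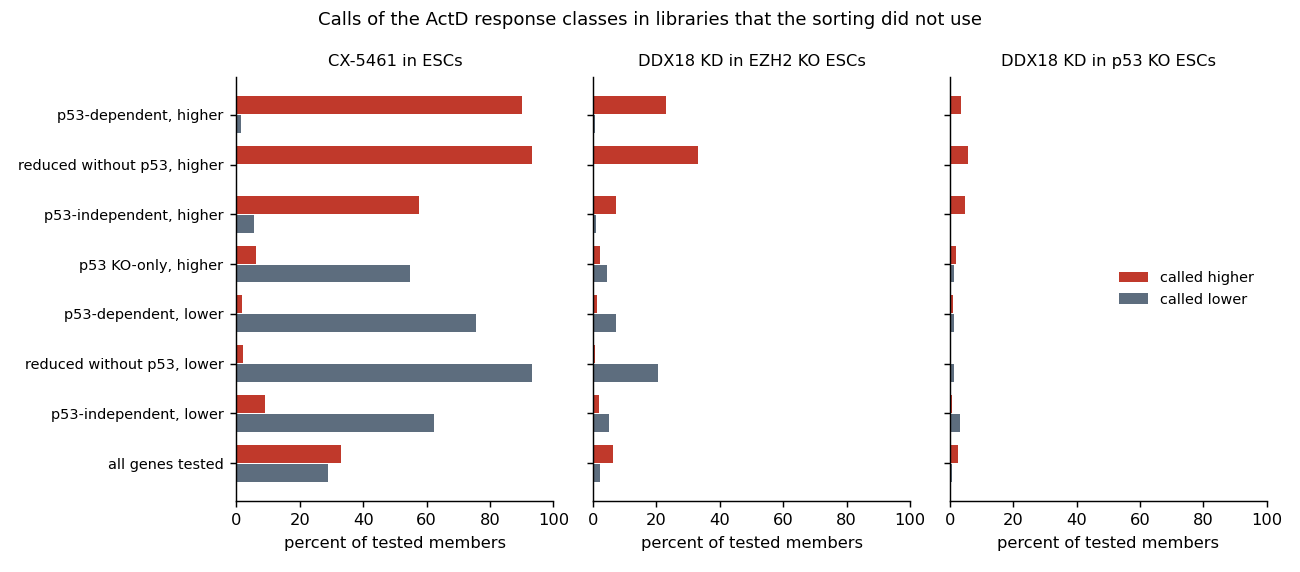
Percent of the tested genes of each class that were called higher or lower with CX-5461 in ESCs and with DDX18 KD in EZH2 KO and p53 KO ESCs, with the percent over all genes tested beside them. Genes that rose in a p53-dependent way stand at 90.0% higher with CX-5461 and 22.9% with DDX18 KD in EZH2 KO ESCs, and at 3.63% in p53 KO ESCs. The shares over all genes tested are 32.9%, 6.3% and 2.63%. Genes that rose in both genotypes and less in p53 KO cells stand at 93.2%, 33.2% and 5.67%. Over genes at 1 FPKM or more in the control libraries, which are not plotted, the p53-dependent shares were 83.4%, 23.7% and 3.74%. Beside them, all such genes had 26.4%, 6.03% and 2.64%.

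A lower dose, 5 ng/ml, was sequenced in ESCs alone, as 2 libraries that share the ActD 0 libraries with the higher dose. In order of dose, Mdm2 had 33.6, 33.6 and 33.8 FPKM at 0, 249 and 236 FPKM at 5, and 235 and 237 FPKM at 10 ng/ml. Cdkn1a had 32.5, 27.3 and 29.7 FPKM at 0, 144 and 153 FPKM at 5, and 169 and 178 FPKM at 10 ng/ml. Nanog had 104, 99.5 and 88.9 FPKM at 0, 3.10 and 3.15 FPKM at 5, and 2.30 and 1.39 FPKM at 10 ng/ml. Pou5f1 had 459, 389 and 415 FPKM at 0, 115 and 122 FPKM at 5, and 50.6 and 47.3 FPKM at 10 ng/ml. Mdm2 was thus about as high at 5 as at 10 ng/ml, while Pou5f1 was lowest at 10 ng/ml. Without p53 KO libraries at 5 ng/ml, p53 dependence at that dose could not be measured.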

How the data were processed

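Per the submitters' processing notes, TopHat2 2.0.11 and CASAVA were used and the builds mm9 and mm10 are named. The role of each and the tool that made the FPKM values are not stated in the notes. The authors deposited FPKM per gene, in 1 table per experiment, and a sheet of mapped-read counts and the mapped fraction per library. Coordinates are the deposited ones (mm10). Each ActD table holds 46854 rows. Joining by symbol left out 169 repeated entries and gave 46685 symbols. In 27 symbols a spreadsheet had written dates, of which 18 were restored by gene ID.

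Values were taken as log2(FPKM + 1). Genes with at least 1 FPKM in 2 of 9 libraries were fitted with limma 3.58.1 (R 4.3.3, trended variance, 1 mean per group, all 9 libraries sharing 1 spread). Changes per genotype and their difference were tested two-sided, with Benjamini-Hochberg adjustment over 15326 genes, at 0.05. Rescaling sets the median gene of each library, taken relative to the geometric mean over its own table, to 1. The CX-5461 and DDX18 KD tables were fitted separately in the same way. FPKM keeps no counting error, so deeper libraries have no greater weight. Since log2(FPKM + 1) understates changes of low genes, a pseudocount of 0.1 was also tried. The fit was tested on simulated data.

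The classes and gene lists were chosen with earlier results of these data known. Genes are named by rule: Trp53, Ddx18, Cdkn1a and Mdm2, the 6 largest per class and direction with separated libraries and at least 5 FPKM, up to 4 called members per list, and the ESC markers. Any others are said to be named after their values were seen. Alternatives were other filters, pseudocounts, scalings and thresholds, and leaving out each library.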

Additional observations from a re-analysis of the deposited data

Results flagged for a closer look

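The ESC and p53 KO changes differed by the test of the difference itself for 2601 genes above 0 and 3040 below 0. Among the genes named by rule, the calls went in opposite directions for 24. Opposite calls that held after rescaling, lower in ESCs and higher in p53 KO cells, had differences of -7.17 for Trh, -5.19 for Rasgrp2, -4.51 for Lefty2, -4.0 for Zp3 and -1.55 for Nop2. Those higher in ESCs and lower in p53 KO cells were 3.62 for Grb10, 2.82 for Fabp3, 2.72 for Tpm2, 2.63 for Lgals3, 2.59 for Ldhb and 2.56 for Rab31. For the other 13 the p53 KO rise was not called after rescaling: -4.38 for Sept1, -3.16 for Otx2, -3.12 for Ephx2, -2.69 for Ccne1, -2.36 for Uhrf1, -2.24 for Mycn, -2.02 for Mcm10, -1.96 for Utp14a, -1.85 for Hist1h1b, -1.81 for Emg1, -1.63 for Tcof1, -1.16 for Ubtf and -0.94 for Rbbp7. Ccnd1, outside the rule and named after its value was seen, also had opposite calls, lower in ESCs and higher in p53 KO cells, as deposited and after rescaling (difference -1.21).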

How the results depend on the processing

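No paired analysis was possible because the table columns carry no replicate number, so a fit with the replicate block could not be made. For the genes named by rule, 175 results were followed: 149 differences of changes and, for 13 genes, the change in each genotype. Each alternative could be run for 152 to 175 of them, and no called value changed sign there. The p53 KO changes of other named genes are not among them, and those lost on rescaling are given with the genes. After rescaling, 168 of the 175 kept their side of the threshold, 5 were no longer called and 2 became called. Without 1 library, 16 were no longer called without p53 KO ActD 10 b, 15 without p53 KO ActD 0 a, 14 without either ESC ActD 10 library, 13 without p53 KO ActD 0 b, 12 without p53 KO ActD 10 a, and 0 to 4 without an ESC ActD 0 library. With a pseudocount of 0.1, 163 kept it and 12 were no longer called, among them Plk2, Dmkn, Trim7, Mesp1 and Mesp2. Counts depended more on the processing, and the cause was not tested. A minimum of 5 FPKM gave 1314 p53-dependent genes that rose, and 1 FPKM in 2 libraries of each table gave 1060, with 1529 differences above 0. Rescaling gave 926 higher and 1357 lower in p53 KO cells, 143 and 357 that changed less without p53, 316 and 558 p53-independent, 308 and 302 p53 KO-only, and 29 and 41 larger in p53 KO cells. A log2 size of at least 1 gave 3227 higher and 1224 lower in ESCs, 884 and 102 in p53 KO cells, 1792 differences below 0, 865 p53-dependent lower, 52 and 12 reduced, 268 and 52 p53-independent, 273 and 16 p53 KO-only, and 3 and 0 larger in p53 KO cells. With an adjusted p of 0.01, counts were 1376 higher and 220 lower in p53 KO cells, 1720 and 1753 differences above and below 0, 1281 p53-dependent lower, 114 and 48 reduced, 521 p53-independent higher, 440 and 31 p53 KO-only, and 20 and 4 larger in p53 KO cells. Rescaling with a log2 size of at least 1, chosen after seeing the data, gave 2803 higher and 1562 lower in ESCs, 353 and 305 in p53 KO cells, 1196 differences below 0, 787 p53-dependent lower, 34 and 27 reduced, 108 p53-independent higher, 104 and 58 p53 KO-only, and 1 and 0 larger in p53 KO cells. Leaving out each library in turn, where a lone library is assumed to vary like the other groups, gave 3125 to 5865 higher and 2055 to 3362 lower in ESCs, 1269 to 5288 and 231 to 758 in p53 KO cells, and 1176 to 3229 differences above and 1953 to 4010 below 0. The p53-dependent class then held 935 to 2280 higher and 1318 to 2410 lower genes, the reduced class 135 to 824 and 57 to 233, the p53-independent class 544 to 1622 and 109 to 231, the p53 KO-only class 423 to 1960 and 43 to 180, and the class larger in p53 KO cells 15 to 162 and 4 to 15. The highest counts all came without ESC ActD 0 library a. That library does not enter the p53 KO changes, only the shared spread, the filter and the adjustment of their test. The p53-dependent genes that rose numbered 940 and 935 without ESC ActD 10 library a or b, and the p53-independent genes that rose 562, 589 and 544 without p53 KO ActD 10 library a or b or ActD 0 library a. FPKM values hold no counting error, so depth sets no interval here.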
